A study of Homo sapiens with 8 samples.

Results

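H3K27ac, the acetylation of lysine 27 of histone H3 that marks active promoters and enhancers, was examined at 10 genes of the CREB and ATF family in human colonic epithelial cells with and without CREBBP. The genes were CREB1, CREM, ATF1, ATF2, ATF3, ATF4, ATF5, ATF7, CREB3 and CREB5, 10 of the 20033 protein-coding genes of the annotation, taken as a family because CREBBP is named as the partner of CREB1. All called peaks in each gene body and the 20 kb on either side were collected from 6 libraries and merged where they overlapped, which gave 170 of the 143733 merged intervals of the whole genome. A peak is described by its fold, the enrichment over the local background given by the peak caller, and by its percentile, the position of that fold among all peaks of the same library, where 100 is the strongest.

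The cells were HCEC-1CT, human colonic epithelial cells (HCECs) made immortal with CDK4 and telomerase. WT libraries came from 3 populations of parental cells, and CREBBP-KO libraries, labelled CBP KO, from 3 populations in which CREBBP had been inactivated with Cas9. Both genotypes descended from a line with doxycycline-inducible Cas9, and the study's methods describe each as a pool of several single-cell clones, the WT pool being made of matched parental subclones, while their ChIP-seq section calls the CREBBP-KO cells monoclonal. The populations of each genotype were independent by the series' design text, but whether those of 1 genotype share clones is not stated, so p-values measure only the spread between these libraries; the 2 input libraries were not analysed here.

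The peak lists were shorter in WT (86163 to 93567 peaks, median folds of 4.32 to 4.46) than in CREBBP-KO (99008 to 111697 peaks, median folds of 4.02 to 4.11). Because the lists differed in length and in scale, genotypes were compared by rank within each list. Such ranks cannot show a change common to all peaks. In CREBBP-KO HCECs the paper reports a moderate H3K27ac decrease of borderline significance by mass spectrometry and a small, significant one by immunofluorescence. A higher or lower percentile or shift below therefore describes standing among the other peaks of a library, not the amount of acetylation. A percentile still depends on list length, since more weak peaks in a list place its stronger peaks at higher percentiles. The limma fit below instead ranked only the tested intervals, which had a peak in all 6 libraries. In these bulk libraries, acetylation in fewer cells and less acetylation per cell cannot be told apart. Of 6 epithelial marker genes, EPCAM, CDH1, KRT8, KRT19 and CLDN4 had no promoter peak in any library and KRT18 had one in 5 of 6, and of 6 intestinal markers only MUC2 had a promoter peak. The 3 mesenchymal markers VIM, COL1A1 and PDGFRB had a promoter peak in all 6 libraries, whereas the 3 blood and 3 endothelial markers had none. MUC2 (WT percentiles of 51.1 to 55.4, CREBBP-KO percentiles of 82.4 to 86.4, limma adjusted p = 8.98e-05) and COL1A1 (97.6 to 98.9 against 99.8 to 99.9, limma adjusted p = 0.00084) ranked higher in CREBBP-KO, MUC2 with all WT folds under 5 and so tested only through CREBBP-KO, and the part of such differences in the results below was not tested.

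CREB and ATF proteins are basic leucine zipper transcription factors that bind DNA as dimers, many of them at the cAMP response element (CRE), whose consensus letters are TGACGTCA. When cAMP rises, protein kinase A phosphorylates CREB1, and the phosphorylated factor binds the histone acetyltransferases CREBBP and EP300, which is how CREBBP (CREB binding protein) got its name. Other members answer to different signals: ATF2 and ATF7 are targets of stress-activated kinases, ATF3 and ATF4 belong to the response to stress and amino acid shortage, and CREB3 is held in a membrane until it is cut free.

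Promoter sequences bear on these genes because several members are described as regulated through CREs of their own. RefSeq promoter entries (GRCh38.p14) were found for 9 of the 10 members, ATF2 having none, and comprised 25 starts. In the 250 bases before each start, read on both strands, the full CRE TGACGTCA was found in 1 of the 25 entries, against 1.63% of all 34943 promoters of the table. It lay before an internal start of CREM, inside the interval with the clearest loss of rank described below, at position -50 from the start. The shorter core TGACG, which is also contained in the full CRE, occurred in 7 of the 25 entries (28%), which belong to CREM, ATF4, ATF5, ATF7 and CREB3, against 21.2% of all promoters. Printed here are the internal CREM start with the CRE, the CREM start with TGACG cores at its main promoter, and ATF4, the member with the strongest promoter peak. The CREM start printed for the main promoter lies 381 bases downstream of the canonical start. Neither the entry at the canonical start nor the one 155 bases downstream of it held a TGACG core. Sequences run 5′ to 3′ on the strand of the gene, and capitals mark a CRE or a TGACG core on either strand.
CREM internal start, chr10:35195652-35195901, plus strand: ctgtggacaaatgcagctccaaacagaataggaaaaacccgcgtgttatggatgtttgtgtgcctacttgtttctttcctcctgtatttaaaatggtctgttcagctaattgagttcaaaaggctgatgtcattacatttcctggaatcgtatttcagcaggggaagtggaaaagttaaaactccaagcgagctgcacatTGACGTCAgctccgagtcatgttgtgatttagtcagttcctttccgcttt
CREM main promoter, chr10:35126977-35127226, plus strand: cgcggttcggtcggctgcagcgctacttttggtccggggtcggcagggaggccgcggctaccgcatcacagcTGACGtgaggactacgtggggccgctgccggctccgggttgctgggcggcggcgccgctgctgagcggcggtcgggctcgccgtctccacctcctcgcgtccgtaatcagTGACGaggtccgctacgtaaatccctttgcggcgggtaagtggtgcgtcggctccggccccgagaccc
ATF4, chr22:39520312-39520561, plus strand: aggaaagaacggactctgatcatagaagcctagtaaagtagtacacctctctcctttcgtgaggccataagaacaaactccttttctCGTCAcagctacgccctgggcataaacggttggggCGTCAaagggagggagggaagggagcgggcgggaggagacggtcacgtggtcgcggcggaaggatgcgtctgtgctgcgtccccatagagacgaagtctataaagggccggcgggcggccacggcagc
A match of letters is a description and does not show that a factor was bound. The table held no ATF3 entry at the canonical start. The median GC content was 60.4% over the 25 member entries and 58.0% over all promoters.

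Each of the 10 canonical promoters (within 1 kb of the start of the Ensembl canonical transcript) was overlapped by a peak in all 6 libraries. The value used is that of the strongest such peak, whose summit can lie outside the window. The summit did so at CREB5 in all 6 libraries and at CREB3 in WT libraries 1 and 2. Mean percentiles ran from 86.4 at CREB5 to 99.4 at ATF4 in WT. In WT the order was ATF4, CREM, CREB3, CREB1, ATF7, ATF3, ATF1, ATF5, ATF2 and CREB5, and the ranges of each pair of neighbours overlapped. In CREBBP-KO the order was ATF4, CREM, ATF7, CREB3, CREB1, ATF2, ATF1, ATF5, CREB5 and ATF3. There ATF4 did not overlap CREM, CREM did not overlap ATF7, ATF5 did not overlap CREB5, and CREB5 did not overlap ATF3, while the other neighbours overlapped. Between genotypes, 3 promoters (ATF2, ATF4 and ATF7) had every CREBBP-KO percentile above every WT percentile, 1 (ATF3) had every one below, and 6 overlapped. Of all 11837 canonical promoters with a peak in all 6 libraries, 46.0% lay above and 7.25% below in the same sense. The median change in percentile was +3.51 over all promoters and +1.05 over the 10 members. The CREBBP-KO lists were the longer ones, and these percentiles were not adjusted for list length. The smallest two-sided p that an exact permutation test of 3 against 3 libraries can give is 0.1, so no single percentile could pass 0.05. Without WT library 3 the promoters above numbered 5, without WT library 1 those below numbered 3, and ranked by −log10 p in place of fold 0 lay above. Leaving out a library can only keep or raise these counts, because fewer values have to separate, so the rises say nothing of stability. The shares over all promoters under these alternatives are not given here.

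To compare genotypes across the genome, the fold of every interval was ranked within its library, the ranks were turned into normal scores (a shift of 1 is 1 SD of that scale) and limma was run on 34864 intervals, those with a peak in all 6 libraries and a fold of at least 5 in all 3 libraries of a genotype. Of the 170 member intervals, 62 had a peak in all 6 libraries, 53 had one in a single library, and 42 entered the test. At an adjusted p under 0.05, 7 of the 42 were higher and 7 lower in CREBBP-KO, against 18.6% higher and 18.7% lower of all intervals tested, so the family had about the share of calls of the genome. Normal scores have the same mean in every library, so shifts up and down cancel over all tested intervals. The near-equal shares in the 2 directions therefore do not show that total acetylation was unchanged. The counts fell to 4 higher and 3 lower when ranked by −log10 p, where limma called 8827 of all 34864 intervals, against 13005 by fold. Without WT library 1 those lower fell to 4 of 45 tested, and 10952 of all 35735 intervals were called. An interval that met the filter through 1 genotype alone was selected for being high in that genotype. Of the 42, 35 had a fold of at least 5 in all 6 libraries, with 4 higher and 6 lower, against 15.5% and 15.8% of all such intervals. The other 4 calls, 1 in the CREB3 window and 3 in CREB5, passed through 1 genotype and are given below with their p without the filter, a fit in which 6 of the 62 intervals were higher and 8 lower, against 12.5% and 12.1% of all. The median shift of the 42 was +0.05 and that of all tested intervals +0.02, and the median absolute shifts were 0.27 and 0.43. The 14 called intervals fell on 8 of the 10 members, while CREB1 and ATF5 had none (7 tested by limma, 0 at an unadjusted p under 0.05). At an adjusted p under 0.0001, 1 of the 42 was called, against 2.79% of all intervals. Of the tested intervals, 11 lay within 1 kb of the start of a neighbouring protein-coding gene, and limma called 0 of these 11, with 2 at an unadjusted p under 0.05.

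**Figure D1:**
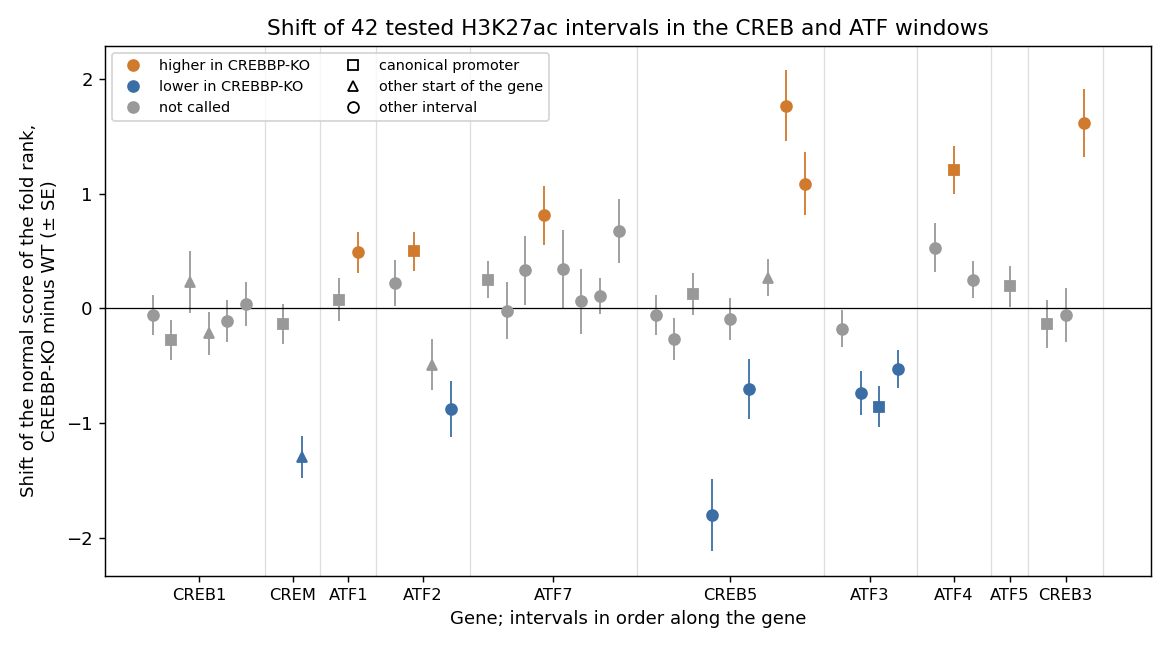
Shift of the normal score of the fold rank, CREBBP-KO minus WT, with its SE from limma, for the 42 tested intervals in order along each gene. Squares are canonical promoters, triangles other starts of the gene and circles the remaining intervals, and colour marks the 7 higher, 7 lower and 28 uncalled intervals. The largest shifts in either direction, -1.80 and +1.77, are both in CREB5. Each of these intervals passed the fold filter only through the genotype where it is high. With no filter on fold their shifts were -1.26 and +1.48.

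CREB1, the founding member and the partner after which CREBBP is named, had no called interval among 6 tested. Its promoter interval (chr2:207528117-207535598) reached 15.3, 16.6 and 20.8-fold in WT libraries 1 to 3 and 17.6, 17.3 and 17.2-fold in CREBBP-KO libraries 1 to 3. The percentiles were 94.0, 96.1 and 98.2 in WT and 96.0, 94.8 and 94.1 in CREBBP-KO. The CREBBP-KO values lay inside the range of WT, and the shift was -0.28 ± 0.18 (SE, limma adjusted p = 0.22). The strongest peak away from its starts lay at -15.4 kb (chr2:207510921-207516784), outside any protein-coding gene body, with mean percentiles of 96.8 in WT and 97.2 in CREBBP-KO and a shift of -0.06 ± 0.18 (limma adjusted p = 0.82). A weak intronic interval 12.7 kb into the gene (chr2:207541785-207542923) was called in all 3 WT libraries, at 4.94, 2.75 and 4.05-fold, and in no CREBBP-KO library.

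CREM, a relative of CREB1 whose transcripts encode both activators and repressors, was called lower at an internal start and not called at its main promoter. The main promoter (chr10:35126020-35129084), which also holds the start of the divergent gene CUL2, stood at 22.2, 24.0 and 25.5-fold in WT and 26.3, 25.6 and 26.9-fold in CREBBP-KO. Its percentiles were 98.6, 99.3 and 99.4 in WT and 99.2, 98.8 and 99.0 in CREBBP-KO, so the groups overlapped (shift -0.13 ± 0.17, limma adjusted p = 0.57). The folds themselves did not overlap between genotypes, whereas the ranks did.

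The internal CREM interval (chr10:35194454-35197204), with its strongest summit 69.2 kb into the gene, lies within 1 kb of the starts of 9 protein-coding transcripts. As background, an internal CREM promoter is known for the short, cAMP-inducible repressor ICER. It stood at 19.0, 16.7 and 20.5-fold in WT and at 10.1, 13.0 and 8.72-fold in CREBBP-KO, and every CREBBP-KO library was below every WT library. In percentiles these were 97.2, 96.2 and 98.1 against 85.8, 89.7 and 79.5. The shift was -1.29 ± 0.18 (SE, limma adjusted p = 3.00e-05), and it was the only one of the 42 called at an adjusted p under 0.0001. It stayed called at an adjusted p under 0.05 in each of the 12 alternative limma fits on the same merged intervals, with adjusted p of 1.71e-05 to 0.0017. Fits that rebuilt the intervals, from windows around summits or from lists of equal length, are not among these 12. The full CRE printed above lay inside the peak of all 6 libraries, and the summits of the peak stood 106 to 169 bases downstream of its first base. A weaker intronic peak 64.6 kb into the gene (chr10:35191251-35192378) also had lower percentiles in every CREBBP-KO library, with means of 63.6 in WT and 37.3 in CREBBP-KO, but its fold was too low for the test.

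ATF1, which dimerises with CREB1, was not called at its promoter and was called higher in an intron. The promoter (chr12:50762888-50769479) had percentiles of 89.8, 91.9 and 93.2 in WT and 92.8, 90.2 and 96.6 in CREBBP-KO, which overlapped (shift +0.07 ± 0.19, limma adjusted p = 0.78). The intronic interval of 9893 bases, with its summit 22.4 kb into the gene (chr12:50782648-50792540), was stronger than the promoter, at 21.2, 21.1 and 23.0-fold in WT and 30.6, 29.1 and 34.3-fold in CREBBP-KO. All CREBBP-KO libraries ranked above all WT libraries there, at mean percentiles of 98.6 and 99.6, and the shift was +0.49 ± 0.18 (limma adjusted p = 0.034). That call was lost when the ranking used −log10 p (limma adjusted p = 0.32), with a lower or no filter on fold (0.057 and 0.058), without a variance trend (0.071), and without any 1 of WT libraries 1 and 2 and CREBBP-KO libraries 1 and 3 (0.07 to 0.14).

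ATF2, a partner of JUN that is activated by JNK and p38, ranked higher at its promoter and lower in an intron in CREBBP-KO. The promoter (chr2:175166020-175169347) stood at 11.6, 11.3 and 12.4-fold in WT and 14.1, 18.2 and 19.6-fold in CREBBP-KO, with percentiles of 88.0, 87.9 and 89.2 against 92.7, 95.6 and 96.1. No CREBBP-KO library overlapped WT, and the shift was +0.50 ± 0.17 (limma adjusted p = 0.027). The call was lost when ranked by −log10 p (limma adjusted p = 0.47), without a variance trend (0.073), and without any 1 of WT libraries 1 and 2 or CREBBP-KO libraries 2 and 3 (0.066 to 0.14). The intronic interval 71.1 kb into the gene (chr2:175095128-175100697) had percentiles of 90.2, 88.2 and 76.0 in WT and 75.0, 79.3 and 71.0 in CREBBP-KO. The groups overlapped there through WT library 3, with a shift of -0.87 ± 0.24 (limma adjusted p = 0.0077) that missed the threshold without WT library 1 (0.058) and when ranked by −log10 p (0.11). An interval at -13.0 kb (chr2:175179186-175182431), at the start of ATP5MC3, was not called (shift +0.22 ± 0.20, limma adjusted p = 0.41).

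ATF7, the closest relative of ATF2, had 8 tested intervals and 1 call. Its promoter (chr12:53622482-53626845), shared with the readthrough gene ATF7-NPFF, had percentiles of 95.2, 93.2 and 95.5 in WT and 97.8, 96.7 and 96.4 in CREBBP-KO. The groups did not overlap, yet the shift of +0.25 ± 0.16 did not pass (limma adjusted p = 0.22). An intronic interval 64.4 kb into the gene (chr12:53560198-53563034) rose from 5.66, 5.86 and 5.69-fold in WT to 9.73, 9.09 and 7.37-fold in CREBBP-KO. The mean percentile was 64.3 ± 1.19 in WT and 80.5 ± 5.22 in CREBBP-KO (SD, n = 3), the shift was +0.81 ± 0.26 (limma adjusted p = 0.017), and the call was lost without CREBBP-KO library 1 (0.091) or library 2 (0.060). The strongest interval away from its starts (chr12:53495534-53507170) covers the starts of MAP3K12, NPFF and TARBP2 and was not called (shift +0.11 ± 0.16, limma adjusted p = 0.60).

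CREB5, related to ATF2 and the longest member at 526.6 kb, held 41 of the 170 intervals, of which 9 were tested and 4 called. No summit lay within 1 kb of its canonical start in any library, since the interval there (chr7:28405133-28411840) had its summits between -2981 and -2608 bases and only its edge reached the window. Percentiles at this interval were 84.5, 85.4 and 89.3 in WT and 90.9, 87.7 and 90.7 in CREBBP-KO, which overlapped (shift +0.13 ± 0.18, limma adjusted p = 0.61). The strongest CREB5 peak was at an internal start 273.9 kb into the gene (chr7:28685136-28689052), where the shift of +0.27 ± 0.16 did not pass (limma adjusted p = 0.20). It reached 17.9, 18.8 and 19.0-fold in WT and 21.6, 25.4 and 26.0-fold in CREBBP-KO.

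Within the introns of CREB5, called changes went in both directions. The interval 7.7 kb into the gene (chr7:28419159-28420796) fell from 9.15, 8.47 and 9.41-fold in WT to 5.90, 4.01 and 3.57-fold in CREBBP-KO, with mean percentiles of 80.6 and 52.8 and a shift of -1.80 ± 0.32 (limma adjusted p = 0.00021). Near the 3′ end, 393.0 kb into the gene, the interval chr7:28804271-28806084 rose from 3.81, 2.83 and 3.42-fold to 6.38, 6.58 and 8.57-fold, and its mean percentile from 27.9 to 74.9 (shift +1.77 ± 0.31, limma adjusted p = 0.00021). Its neighbour at 394.7 kb (chr7:28806286-28807585) rose from 4.60, 4.66 and 4.22-fold to 6.72, 7.56 and 7.52-fold (shift +1.09 ± 0.27, limma adjusted p = 0.0040). In these 3 intervals the genotypes did not overlap. The first met the fold filter only through WT and the other 2 only through CREBBP-KO, in each case the genotype where they are high. With no filter on fold the shifts were -1.26, +1.48 and +0.75 (limma adjusted p = 0.00065, 0.00083 and 0.012). All 3 were called in each of the 12 alternative fits, most of which kept the filter. The fourth call, at 217.5 kb (chr7:28626375-28630725), was the smallest (shift -0.70 ± 0.26, limma adjusted p = 0.039), and it was called in 5 of the 12 alternative fits (0.032 to 0.17). Its percentiles overlapped between genotypes, whereas its folds did not, at 9.58, 8.25 and 7.15 in WT and 6.43, 7.09 and 5.46 in CREBBP-KO. The interval at the outermost start of CREB5, at -113.2 kb from the canonical one (chr7:28299057-28299757), was called in 3 of 3 WT libraries, at 5.14, 4.02 and 6.0-fold, and in no CREBBP-KO library.

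ATF3, an immediate-early gene induced by many stresses, had 3 of its 4 tested intervals lower in CREBBP-KO. The promoter (chr1:212606777-212610198) stood at 14.0, 14.7 and 15.0-fold in WT and 10.4, 8.68 and 11.0-fold in CREBBP-KO. Its percentiles were 92.4, 94.1 and 93.4 in WT and 86.6, 80.5 and 85.3 in CREBBP-KO. The groups did not overlap, the shift was -0.86 ± 0.18 (limma adjusted p = 0.00088), and the call held in each of the 12 alternative fits, while 7.60% of the 11415 canonical promoters of other genes tested were called lower. The strongest peak of the locus lay at -12.0 kb from this start, in an intron of a longer ATF3 transcript (chr1:212595088-212598051), at 34.1, 29.8 and 27.7-fold in WT and 28.5, 25.7 and 24.8-fold in CREBBP-KO. Its folds overlapped but its percentiles did not, with means of 99.8 and 98.9 and a shift of -0.74 ± 0.19 (limma adjusted p = 0.0049), and the call was lost when ranked by −log10 p (0.096). Downstream of the gene, 27.7 kb from the start (chr1:212635379-212639795), mean percentiles were 95.3 and 91.0 and the shift was -0.53 ± 0.17 (limma adjusted p = 0.018). That last call was lost when ranked by −log10 p (0.069), without a variance trend (0.059), and without WT library 1 or CREBBP-KO library 2 or 3 (0.059 to 0.099). The remaining tested interval, at -49.9 kb, did not pass, with mean percentiles of 94.0 in WT and 93.3 in CREBBP-KO.

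ATF4, the factor made when the translation initiation factor eIF2 is phosphorylated under stress, had the strongest promoter of the family and the largest rise among the member promoters in fold. The promoter interval (chr22:39517527-39525898) stood at 25.8, 24.2 and 27.3-fold in WT and 44.6, 47.9 and 48.7-fold in CREBBP-KO, and the mean fold was 1.83 times as high in CREBBP-KO. That ratio was not adjusted for the difference in scale between lists. Its rank in the list was 625, 586 and 321 in WT and 11, 17 and 10 in CREBBP-KO. No library overlapped, and the shift was +1.20 ± 0.21 (limma adjusted p = 0.00020), while 27.1% of the canonical promoters of other genes were called higher. Ranked by −log10 p, the shift was +0.13 and the call was lost (limma adjusted p = 0.69). The highest interval away from its starts, 12.0 kb downstream (chr22:39531247-39533414), lies at the start of RPS19BP1, and all its CREBBP-KO percentiles were above WT without a call (shift +0.25 ± 0.16, limma adjusted p = 0.22).

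ATF5, like ATF4 translated under stress, had 1 tested interval (chr19:49927078-49930583), which also holds starts of NUP62 and IL4I1. Its percentiles were 86.7, 87.2 and 91.9 in WT and 91.0, 92.7 and 93.3 in CREBBP-KO. WT library 3 lay within the range of CREBBP-KO, and the shift was +0.19 ± 0.18 (limma adjusted p = 0.41). A weak interval at -7.3 kb (chr19:49921486-49923519) had mean percentiles of 55.2 in WT and 54.8 in CREBBP-KO.

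CREB3, a factor anchored in the membrane of the endoplasmic reticulum, is a short gene whose promoter interval of 15932 bases (chr9:35719350-35735281) also spans the start of TLN1. In WT libraries 1 and 2 the strongest summit was at -4842 and -4795 bases from the CREB3 start, and in the other libraries between -771 and -609 bases. The percentiles of 97.5, 95.5 and 99.0 in WT and 99.1, 95.8 and 95.9 in CREBBP-KO overlapped (shift -0.13 ± 0.21, limma adjusted p = 0.64). Across the edge of the 20 kb flank, with its summit outside at 24.4 kb from the start, an interval in the gene bodies of RGP1 and MSMP (chr9:35756541-35757912) rose from 4.40, 3.29 and 4.19-fold in WT to 7.72, 8.24 and 7.95-fold in CREBBP-KO. The mean percentile there was 41.8 in WT and 78.4 in CREBBP-KO, without overlap (shift +1.61 ± 0.29, limma adjusted p = 0.00030). It met the fold filter only through CREBBP-KO, where it is high, and with no filter the limma adjusted p was 0.0012. Counting only intervals whose midpoint lies in a window leaves it out, and the member intervals called higher were then 6. The strongest interval away from its start (chr9:35745220-35750552) holds starts of GBA2 and RGP1 and was not called (shift -0.06 ± 0.23, limma adjusted p = 0.86).

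Peaks were more numerous in the 10 windows in CREBBP-KO, at 128, 121 and 136, than in WT, at 116, 101 and 101. The groups did not overlap, and the exact two-sided permutation p was 0.1, the smallest possible. The windows held 0.117% ± 0.0076 of the list in WT and 0.122% ± 0.013 in CREBBP-KO (SD, n = 3), which overlapped (exact permutation p = 0.7). They were covered by peaks over 195 ± 8.57 kb in WT and 199 ± 10.0 kb in CREBBP-KO (exact permutation p = 0.5). Of the 170 intervals, 3 had a peak in all WT and no CREBBP-KO library, against 1.08% of all merged intervals, and 3 had a peak in all CREBBP-KO and no WT library, against 2.66%. The first were the CREB1 intron and CREB5 outermost start described above and an intron of CREB5 313.5 kb into the gene. The second lay 7.7 kb downstream of the ATF4 start, in an intron of ATF7 40.5 kb into the gene, and downstream of CREB5. Their folds were 2.42 to 6.0 in the first set and 2.47 to 4.78 in the second.

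**Figure D2:**
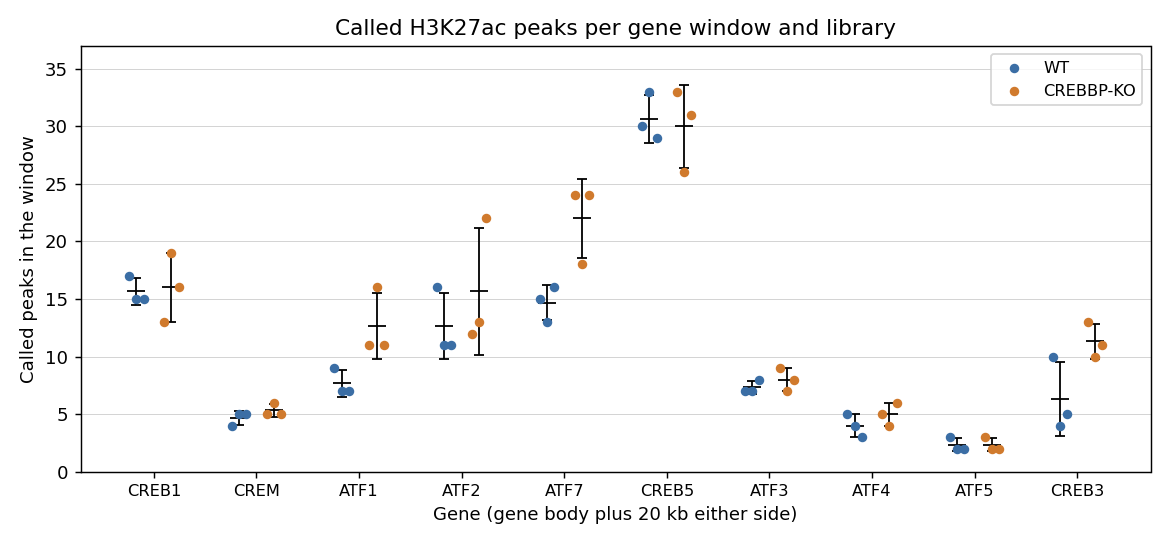
Number of called peaks in each gene window (gene body plus 20 kb either side), with points for the 3 libraries of each genotype and bars for the mean ± SD. CREB5, the longest gene, held 29 to 33 peaks in WT and 26 to 33 in CREBBP-KO, and CREB3 held 4 to 10 and 10 to 13.

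Genes around the family were examined at their canonical promoters in the same limma fit. Of 25 genes of cAMP and protein kinase A signalling and its coactivators, 20 were tested, with 5 higher and 1 lower in CREBBP-KO, against 27.1% higher and 7.60% lower among the canonical promoters of all genes but the 10 members. ADCY6, an adenylyl cyclase that makes cAMP, rose (shift +1.16 ± 0.18, limma adjusted p = 5.57e-05), as did RPS6KA5, a kinase of CREB1 (+1.09 ± 0.30, limma adjusted p = 0.0078). The WT folds of RPS6KA5 were all under 5, so it met the filter only through CREBBP-KO (limma adjusted p = 0.021 with no filter). ADCY9, another adenylyl cyclase, fell by 1.40 ± 0.23 (limma adjusted p = 9.80e-05). At the promoter of CREBBP itself the percentiles were 96.5, 98.6 and 94.8 in WT and 98.8, 98.8 and 99.3 in CREBBP-KO (shift +0.46 ± 0.18, limma adjusted p = 0.047, or 0.066 with no filter on fold), which measures acetylation and does not check the loss of the protein. EP300, its paralogue, stood between 99.1 and 99.6 in all 6 libraries (shift +0.05 ± 0.17, limma adjusted p = 0.85).

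Of 20 genes known as cAMP or CREB1 targets, 14 were tested, with 3 higher and 3 lower, against the same 27.1% and 7.60%. The lower ones were NR4A1 (shift -0.68 ± 0.17, limma adjusted p = 0.0031), DUSP1 (-0.60 ± 0.18, limma adjusted p = 0.011) and NR4A2, which are immediate-early genes, while FOS (+0.17), FOSB (-0.28), NR4A3 (+0.00020) and PER1 (+0.023), also immediate-early genes of this list, were not called. The higher ones were PDE4B, which breaks down cAMP (+0.62 ± 0.22, limma adjusted p = 0.032), PCNA (+0.52 ± 0.17, limma adjusted p = 0.019) and IRS2. IRS2 was near the threshold (+0.42 ± 0.17, limma adjusted p = 0.049) and was not called with no filter on fold (0.055).

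Of 28 genes of the integrated stress response and ATF4 targets, all were tested, with 9 higher and 1 lower, the lower one being ATF3 itself, against 27.1% and 7.60% of other genes. PPP1R15B, which directs the dephosphorylation of eIF2, rose from percentiles of 93.4, 93.5 and 95.5 to 99.4, 99.6 and 99.5 (shift +1.13 ± 0.16, limma adjusted p = 3.44e-05). PHGDH, the first enzyme of serine synthesis, rose from 87.6, 88.2 and 86.1 to 96.4, 97.3 and 98.3 (+0.96 ± 0.17, limma adjusted p = 0.00017). Of the other 7, PSAT1 and MTHFD2 act in serine and one-carbon metabolism, and TRIB3, CHAC1 and DDIT3 are stress-induced genes downstream of ATF4. EIF2AK2 is an eIF2 kinase and VLDLR is a lipoprotein receptor. Genes of this list that were not called included SHMT2 (+0.16), EIF2AK1 (+0.41), EIF2AK4 (+0.36), EIF2AK3 (-0.24), PPP1R15A (-0.046), ASNS (-0.37) and SLC7A11 (-0.56). The median shift of this list was +0.26 and that of all canonical promoters tested +0.22.

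Of 19 other genes of CREB and ATF type and their partners, 15 were tested, with 3 higher and 1 lower. DDIT3, a partner of ATF4 that is also in the stress list (+0.84 ± 0.23, limma adjusted p = 0.0066), CREBZF (+0.66 ± 0.18, limma adjusted p = 0.0073) and CREB3L1 were higher, and BATF2 was lower (-1.28 ± 0.28, limma adjusted p = 0.0012). BATF2 met the filter only through WT, and its limma adjusted p was 0.0063 with no filter. Over the 84 genes of the 4 lists, 71 were tested, of which 18 were higher and 6 lower, against the 27.1% and 7.60% of that background. The number higher was 10 when ranked by −log10 p, 10 without CREBBP-KO library 2 and 8 without CREBBP-KO library 3. Calls over all tested intervals, in either direction, also fell in these fits, from 13005 to 8827, 10630 and 10310. The shares over all canonical promoters in these fits are not given here.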

How the data were processed

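H3K27ac ChIP-seq (antibody Ab4729) reads were aligned to hg38 (BWA in the submitters' processing notes) in the nf-core ChIP-seq pipeline, and narrow peaks were called with MACS2 in each library; its version, the control used and whether the lists followed downsampling are not given in the sources used here. The lists deposited by the authors give each peak's fold, a ratio to local background, its −log10 p and −log10 q, and its summit. The study's methods give an average sequencing depth and a cap for downsampling, but not which depth lies behind each list; precision rests on 3 libraries per genotype.

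Starts and gene bodies came from GENCODE release 44. Percentiles were ranks of fold within a list. Peaks of all libraries were merged where they overlapped, and the highest fold per library was ranked. Normal scores were tested with limma 3.58.1 (R 4.3.3, eBayes with trend, Benjamini-Hochberg over 34864 intervals). In simulated data with 200 shifted intervals, 14.0% were recovered at a shift of 1 and 85.5% at a shift of 2. In the real data 13005 intervals were called, so these rates need not carry over. An uncalled interval is not shown to be unchanged. Single values were tested by exact two-sided permutation (scipy 1.17.1). All members, their canonical promoter, at most 3 called intervals each and the highest interval away from starts were named, with CREBBP, EP300 and the 2 largest calls per list and direction; others were named after their values were seen. Members and lists were chosen with earlier results of these data known. Alternatives changed the ranking, filter, window, list length, scale and libraries.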

Additional observations from a re-analysis of the deposited data

How the results depend on the processing

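Of the 14 intervals called between genotypes, 6 were called in all 12 alternative limma fits on the same merged intervals. They were the internal CREM start, the ATF3 promoter, the RGP1 and MSMP interval in the CREB3 window and 3 CREB5 introns. The interval in the CREB3 window and the CREB5 introns passed the fold filter only through the genotype where they are high. Most of the 12 fits kept that filter. Ranked by −log10 p in place of fold, member intervals numbered 4 higher and 3 lower, canonical promoters above WT 0, and pathway promoters higher 10, and signs turned for uncalled intervals of CREB1 at -15.4 kb (+0.22), ATF5 (-0.0271), the ATF7 promoter and flank (-0.0275 and -0.0456) and the CREB5 promoter (-0.0641). In that ranking 8827 of all 34864 tested intervals were called, against 13005 by fold. At an adjusted p under 0.0001, 0 member intervals were higher and 1 lower. On the log2 fold scale the promoter differences of CREM (+0.14) and CREB3 (+0.11) were positive. The bases covered, 4836 more in CREBBP-KO, turned to -236 at −log10 q of at least 5, -1356 at a fold of at least 5, -3458 without flanks and -3945 in lists of equal length, and ranged from -637 to 9199 with a library left out. The cause of these changes was not tested.

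With 1 library left out, the number of promoters above WT ranged from 3 to 5 and below from 1 to 3, counts that an omission cannot lower. The member intervals called lower ranged from 4 (without WT 1) to 10 (without WT 3), and the pathway promoters called higher from 8 to 22. Over all tested intervals, calls ranged from 10310 (without CREBBP-KO 3) to 13112 (without WT 3), against 13005 with all libraries. Percentile differences of promoters ranged from -0.37 to +0.0374 for CREM, -0.12 to +3.06 for ATF1 and -1.49 to +0.44 for CREB3. Uncalled shifts that changed sign ranged from -0.25 to +0.0728 (CREB1 at -15.4 kb), -0.14 to +0.23 (ATF1 promoter), -0.0104 to +0.38 (ATF2 at -13.0 kb), -0.37 to +0.0743 (CREB3 promoter), -0.20 to +0.0364 (CREB3 flank) and -0.19 to +0.0568 (CREB5 at -64.5 kb).

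With the replicate number as a replicate block, 7 member intervals were called higher and 8 lower, and 19 pathway promoters higher and 7 lower. Deviations of same-numbered WT and CREBBP-KO libraries correlated at 0.011, 0.014 and 0.028, so the numbers were not taken as pairs. Requiring the summit within 1 kb of the start, an alternative chosen after seeing the data, left 3 promoters above and 1 below; CREB3 and CREB5, which lacked such a peak in at least 1 library, got no value. Lists without read counts set no limit of detection, so an interval without a peak is not shown to lack acetylation.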
